A study of Homo sapiens with 6 samples.

Results

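The genes described here are 10 enzymes and partners of ADP-ribosylation in MM.1S, a human multiple myeloma cell line of plasma cell type: the ADP-ribose hydrolases MACROD1, MACROD2 and OARD1, the ADP-ribosyltransferases PARP1, PARP9, PARP10, PARP12, PARP14 and TIPARP, and DTX3L, the ubiquitin ligase that partners PARP9. They were taken by symbol from a table of 21850 genes, and all 10 symbols were listed there. The list was chosen by the log2 fold change of MACROD2 between the groups, already known to be among the largest falls, and the others were added as related enzymes, so the differences of these genes between the groups are given as descriptions with no test.

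RNA was sequenced from 3 libraries of cells infected with a scramble short hairpin RNA (shNT) and 3 libraries of cells infected with a hairpin against PRKCN (shPRKCN), a serine/threonine kinase of the protein kinase D family that the count table lists as PRKD3, all on day 3. Both groups are the same cell line and carry a lentiviral hairpin, and by the study's methods the hairpin vector also makes GFP. The labels name 1 knockdown line and do not say which of the study's hairpins it holds, so effects of the hairpin on other transcripts cannot be told apart from those of the kinase, and they do not say whether the 3 libraries of a group came from separate infections, so the spread between them may be technical. Depth was even, with 35625564 to 37730003 counts per shNT library and 36913919 to 37478529 per shPRKCN library. PRKD3 stood at 1262 ± 41.7 CPM (counts scaled to the library total) in shNT and 517 ± 23.4 in shPRKCN (SD, n = 3), a log2 fold change of −1.29 (SE 0.0343, adjusted p = 8.2e-43 edgeR's quasi-likelihood F test, Benjamini-Hochberg adjusted over all genes tested), so 41.0% of the transcript level remained. All 9 plasma cell markers on the list were present at 1242 or more counts in each shNT library, while 11 of 12 markers of other cell types had at most 35 counts in any library. The exception was CD3E, a T cell receptor subunit, which had 379 to 419 counts per shNT library but 1021 to 1150 per shPRKCN library, whereas CD3D, its partner subunit, had 0 to 1. In FPKM (fragments per kilobase of transcript, scaled to the library total), CD3E alone went from 7.93 ± 0.346 to 21.3 ± 1.29 (SD, n = 3), while the other 11 markers summed to between 0.513 and 1.59 in shNT and between 0.436 and 1.07 in shPRKCN, so that all 12 summed to 8.30 to 9.69 and 21.1 to 23.3. Of the plasma cell markers, 3 of 9 passed both limits given below, all as lower, beside 10.6% of all tested genes as lower. They were XBP1, a transcription factor of secretory cells, at a log2 fold change of −1.28, TNFRSF17, the receptor BCMA, at −1.13 and SLAMF7, a surface receptor, at −0.97. The median of the 9 was −0.35. The part of these marker changes in the values below was not tested.

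ADP-ribosylation is the transfer of ADP-ribose from NAD onto proteins or nucleic acids, singly or as chains. PARP1 builds chains at DNA breaks, most other PARPs add single units, macrodomain enzymes such as MACROD1, MACROD2 and OARD1 take the last unit off the protein, and PARG shortens chains. PARP9, DTX3L, PARP10, PARP12 and PARP14 are known as interferon-inducible genes, and TIPARP as a target of the aryl hydrocarbon receptor. MACROD2 spans one of the largest human genes and lies at a common fragile site, where tumours often carry deletions.

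The promoters of the members higher in shPRKCN are shown first, since 4 of them share a stretch of letters. RefSeq windows of 250 bases before to 50 bases after an annotated start (GRCh38.p14) were found for 9 members, 16 windows in all, and each was searched on both strands for GAAANNGAA (the IRF motif, 2 adjoining IRF sites), GGAANNGAA (an ETS-IRF composite), TTCNNNGAA (GAS, an interferon-gamma-activated site) and GCGTG (the AHR core). PARP9, DTX3L, PARP14 and PARP12 each held GGAANNGAA and GAAANNGAA overlapping in 1 run of 15 bases, in capitals below, in sequences of 110 bases that end 10 bases into the transcript, read 5′ to 3′ on the gene's strand.
PARP9, chr3:122564291-122564400, minus strand: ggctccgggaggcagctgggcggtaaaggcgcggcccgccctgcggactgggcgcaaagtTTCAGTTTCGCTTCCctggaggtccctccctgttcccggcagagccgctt
DTX3L, chr3:122564238-122564347, plus strand: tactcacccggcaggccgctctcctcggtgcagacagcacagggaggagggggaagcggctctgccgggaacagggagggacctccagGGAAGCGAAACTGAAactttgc
PARP14, chr3:122680739-122680848, plus strand: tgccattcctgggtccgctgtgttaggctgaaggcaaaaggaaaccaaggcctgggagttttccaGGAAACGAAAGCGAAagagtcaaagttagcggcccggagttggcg
PARP12, chr7:140062942-140063051, minus strand: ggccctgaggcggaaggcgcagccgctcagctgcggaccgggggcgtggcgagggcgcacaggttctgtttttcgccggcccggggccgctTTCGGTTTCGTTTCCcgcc
RefSeq gives PARP9 more than 1 start. The start used above, at 122564300, and that of DTX3L are 38 bases apart and face away from each other, and their run is the same 15 bases of the genome, chr3:122564326-122564340, read on opposite strands. The run began 40 bases before this start of PARP9, 12 before that of DTX3L, 35 before that of PARP14 and 9 before that of PARP12. The window of the other PARP9 start, at 122564784 and 446 bases from that of DTX3L, held none of the motifs, and the run lies downstream of that start.

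Single motifs of this kind are common: among all 35116 windows of the same length, 8.11% held GAAANNGAA, 7.79% held GGAANNGAA, 7.66% held TTCNNNGAA and 36.5% held GCGTG. Of the 16 member windows, 4 held each of the IRF motifs, 2 held TTCNNNGAA (PARP14 and 1 window of OARD1) and 8 held GCGTG, among them windows of MACROD2, MACROD1, OARD1, PARP1, PARP12 and TIPARP. The joined run GGAANNGAAANNGAA, a search chosen after the sequences were seen, was in 57 of the 35116 windows (0.162%). Of the other genes with this run, 29 were tested in the RNA-seq data. Of these, 3 (10.3%) passed both limits given below as higher and 1 (TENM1) as lower, beside 6.15% and 10.6% of all tested genes. The 3 were RSAD2, CMPK2 and LOC102723458, named after their values were seen. RSAD2 and CMPK2 overlap at their starts on opposite strands, and whether their runs are the same bases was not checked. The median log2 fold change of the 29 was −0.04, and nothing is read from these few genes. These matches describe letters only, and binding was not measured.

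**Figure D1:**
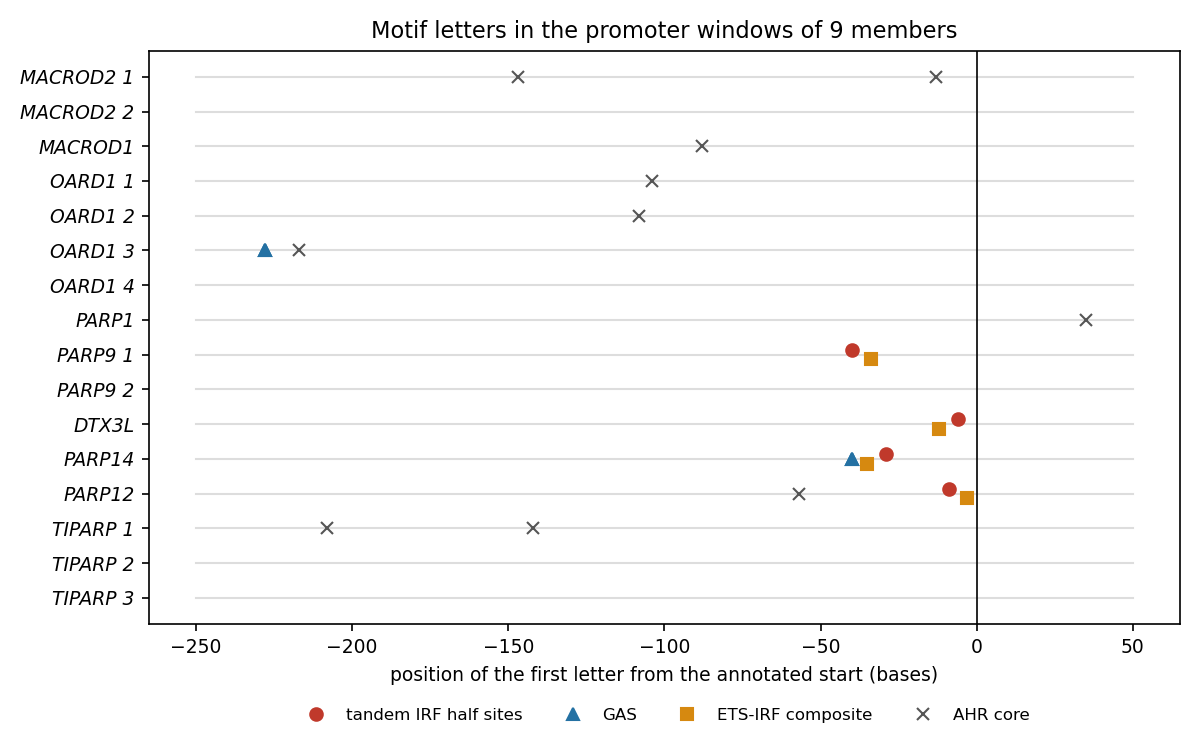
First letter of each motif match (marker shape) in the RefSeq promoter windows of 9 members, by distance from the annotated start in bases, 1 line a window, numbered where a gene has several. The IRF and ETS-IRF markers sit together just before the start in window 1 of PARP9 and in the windows of DTX3L, PARP14 and PARP12, and in no other window, while the AHR core is scattered over 8 windows.

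MACROD2 was close to lost in shPRKCN. The shNT libraries held 568, 695 and 627 of its reads, against 40, 46 and 48 in those of shPRKCN. The lowest shNT library was thus far above the highest shPRKCN library, and the libraries within each group lay close together. In CPM it went from 17.2 ± 1.47 to 1.19 ± 0.104 (SD, n = 3), 6.91% of the shNT level, with a log2 fold change of −3.85 (SE 0.135). In bulk RNA, fewer cells with the transcript and less of it per cell cannot be told apart. Among genes past both limits with a mean of at least 50 counts, the next falls were FOSB at −3.12, CHAC1 at −3.02 and NCAM1 at −2.87. CBS, CRLF2 and NR4A1, with mean counts of 11.3, 38.8 and 39.2, had larger fitted falls that rest on few reads in shPRKCN.

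The related hydrolases stayed near their shNT levels. MACROD1, a macrodomain hydrolase of mitochondria, had 843, 868 and 1050 counts in shNT and 718, 801 and 818 in shPRKCN, a log2 fold change of −0.28 (SE 0.0707) that left 82.5% of the CPM level. Its groups did not overlap in CPM, nor did those of 58.8% of all tested genes. The third shNT library stood at 28.0 CPM beside 23.9 and 23.6 in the other shNT libraries and 19.2 to 21.5 in shPRKCN. Without that library the log2 fold change was −0.19. OARD1, which removes terminal ADP-ribose from glutamate, had 1426, 1299 and 1374 counts in shNT against 1329, 1300 and 1304 in shPRKCN. It was the 1 member whose groups overlapped in CPM, with a log2 fold change of −0.10 (SE 0.0569). Per transcript length, in FPKM, the 3 hydrolases summed to 19.5 ± 0.563 in shNT and 14.8 ± 0.199 in shPRKCN, and the MACROD2 share of that sum went from 16.6% ± 1.91 to 1.53% ± 0.111 (SD, n = 3).

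PARP9 and DTX3L, which form a complex, were both higher in shPRKCN. PARP9 had 169, 155 and 160 counts in shNT and 602, 624 and 715 in shPRKCN. Every shPRKCN library held more than 3 times the counts of any shNT library, and in CPM the level went from 4.42 ± 0.314 to 17.2 ± 1.41, a log2 fold change of 1.96 (SE 0.106). DTX3L had 760, 784 and 702 counts in shNT and 1976, 1902 and 1859 in shPRKCN, a log2 fold change of 1.31 (SE 0.0594). DTX3L was the more abundant of the pair in every library: the ratio of DTX3L to PARP9 in FPKM was 6.37, 7.16 and 6.21 in shNT and 4.65, 4.32 and 3.68 in shPRKCN. PARP9 (chr3:122527924-122564784, minus strand) and DTX3L (chr3:122564338-122575203, plus strand) overlap by 447 bases when PARP9 is taken from its outer start, and since it is not known whether the counting used strand, reads from that stretch cannot be assigned to one of them.

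PARP12, PARP10 and PARP14, mono-ADP-ribosyltransferases, were higher by less. PARP12 (chr7:140023749-140062951) had 611, 680 and 691 counts in shNT and 1156, 1012 and 1091 in shPRKCN, a log2 fold change of 0.68 (SE 0.068) or 160% of the shNT level. PARP10 had 1882, 2150 and 2280 counts in shNT and 2651, 2726 and 2757 in shPRKCN, a log2 fold change of 0.33 (SE 0.048). PARP14 (chr3:122680839-122730840) had 1691, 1785 and 1836 counts in shNT and 2223, 2160 and 2302 in shPRKCN, a log2 fold change of 0.29 (SE 0.0486). None of these 3 genes had overlapping groups, which was also the case for 58.8% of all tested genes. With the limits used for all genes, an adjusted p under 0.05 and an absolute log2 fold change over 0.58, PARP12 passed the fold limit by the least and PARP10 was the nearest member that did not pass it. The FPKM of PARP9, PARP10, PARP12, PARP14 and DTX3L together went from 30.0 ± 1.09 to 45.4 ± 0.783 (SD, n = 3).

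PARP1 and TIPARP were the most abundant members and changed least among those that were higher. PARP1 (chr1:226360691-226408093) had 27752, 28882 and 29374 counts in shNT and 31873, 33285 and 32856 in shPRKCN, a log2 fold change of 0.15 (SE 0.0321). TIPARP (chr3:156674590-156706770), a mono-ADP-ribosyltransferase that limits signalling by the aryl hydrocarbon receptor, had 3080, 3191 and 3142 counts in shNT and 3633, 3557 and 3692 in shPRKCN, a log2 fold change of 0.17 (SE 0.0418). In both genes every shPRKCN library was above every shNT library, while 58.8% of all tested genes had groups that did not overlap in either direction. In CPM shPRKCN held 111% of the shNT mean for PARP1 and 113% for TIPARP.

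Of the 10 members, 3 passed both limits as higher (PARP9, DTX3L and PARP12) and 1 as lower (MACROD2), where 16.7% of all 13971 tested genes did so in either direction, 6.15% as higher and 10.6% as lower. The groups did not overlap in CPM for 9 members, which was also the case for 58.8% of all tested genes. The median log2 fold change was 0.23 over the members and 0.00 over all tested genes. Because this contrast was used to choose the members, nothing is read from these counts.

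Per transcript length, PARP1 led the members in both groups, at 196 ± 0.39 FPKM in shNT and 220 ± 3.32 in shPRKCN (SD, n = 3), and made up 81.0% and 78.9% of the FPKM of the 6 transferases among the members. TIPARP followed at 19.6 ± 0.413 and 22.3 ± 0.447, and PARP10 at 15.7 ± 1.08 and 20.0 ± 0.242. In shNT the order went on with OARD1 at 9.33 ± 0.635, MACROD1 at 6.91 ± 0.68, PARP14 at 5.83 ± 0.0742, PARP12 at 4.37 ± 0.17, DTX3L at 3.53 ± 0.267, MACROD2 at 3.24 ± 0.283 and PARP9 at 0.538 ± 0.0373. DTX3L and MACROD2 were the only neighbours in that order whose libraries overlapped. In shPRKCN the order was DTX3L at 8.90 ± 0.348, OARD1 at 8.82 ± 0.178, PARP14 at 7.25 ± 0.227, PARP12 at 7.10 ± 0.519, MACROD1 at 5.78 ± 0.351, PARP9 at 2.13 ± 0.184 and MACROD2 last at 0.226 ± 0.0193. There the libraries of DTX3L overlapped with those of OARD1, and those of PARP14 with those of PARP12. MACROD2 and PARP9 thus exchanged the last 2 places, and DTX3L moved from the eighth to the fourth.

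**Figure D2:**
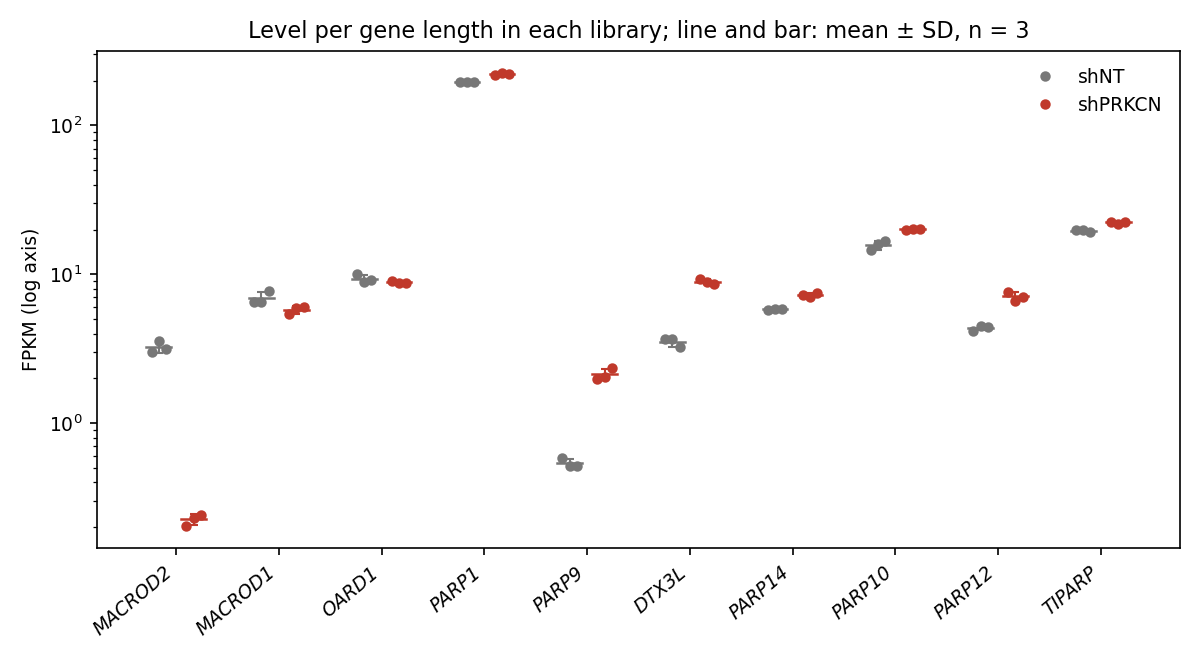
FPKM of each member (log axis) in the 3 shNT and 3 shPRKCN libraries, 1 point a library, with the group mean as a line and the SD as a bar (n = 3). MACROD2 drops from 3.24 to 0.226 FPKM, PARP9, DTX3L and PARP12 lie higher in shPRKCN, and OARD1 is the member whose groups overlap.

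The rest of the ADP-ribose pathway was then described list by list. No comparison with MACROD2 is drawn, since it was chosen for its fall. The adjusted p-values that follow are from edgeR's quasi-likelihood F test, Benjamini-Hochberg adjusted over all 13971 tested genes. Of these genes, 16.7% passed both limits, 6.15% as higher and 10.6% as lower, and the counts for each list stand beside those shares. Among the other ADP-ribose hydrolases, 1 of 7 tested genes passed both limits, as higher: ENPP1, an ectoenzyme that cleaves nucleotides outside the cell, went from 5.85 ± 0.618 to 9.77 ± 0.80 CPM (log2 fold change 0.74, SE 0.117, adjusted p = 1.4e-07). NUDT9, which hydrolyses free ADP-ribose, had a log2 fold change of −0.54 (adjusted p = 3.2e-07), and NUDT16, which acts on ADP-ribose attached to protein, 0.41 (adjusted p = 3.1e-10), and neither passed the fold limit. The smallest change in size was that of NUDT5 at −0.16 (adjusted p = 0.0018). The median of the list was 0.29. ADPRHL1 was listed at 0 to 2 counts and was not tested.

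Of the other ADP-ribosyltransferases, 10 were tested and 1 passed both limits, as lower. PARP2, which like PARP1 acts at DNA breaks, fell from 17.3 ± 0.897 to 11.1 ± 1.34 CPM (log2 fold change −0.64, SE 0.0893, adjusted p = 5.8e-09), and without the second shPRKCN library it was no longer past both limits. PARP3, also linked to DNA breaks, had a log2 fold change of 0.53 (adjusted p = 2.9e-14), and PARP4, the vault particle PARP, 0.02 (adjusted p = 0.71). The median of the list was 0.06. PARP15 lies beside PARP14 and had at most 5 counts in any library, and ART1, ART3, ART4 and ART5 were not listed.

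Among the genes that read ADP-ribose or assist the transferases, 1 of 10 tested passed both limits, as lower: DTX4, a ubiquitin ligase of the Deltex family like DTX3L, at −0.84 (SE 0.203, adjusted p = 0.00029). HPF1, which directs PARP1 and PARP2 to serine, had a log2 fold change of −0.45 (adjusted p = 8.8e-07), and MACROH2A1, a macrodomain histone, 0.32 (adjusted p = 7.1e-13). APLF, a repair factor that binds ADP-ribose chains, stood at 0.03 (adjusted p = 0.89), and the median of the list was −0.02.

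Of 17 tested genes that make or use NAD, 1 passed both limits, as lower: QPRT, which makes NAD precursor from quinolinate, at −0.69 (SE 0.13, adjusted p = 6.1e-06). NADK, which phosphorylates NAD, had a log2 fold change of 0.35 (adjusted p = 5.2e-11). CD38, a NAD glycohydrolase and plasma cell marker, stood at −0.01 (adjusted p = 0.87), and the median of the list was 0.07. Single-strand break and base excision repair held the most lower genes, with 5 of 20 past both limits and all 5 lower, beside 10.6% of all tested genes. These were the DNA glycosylases NEIL3 (−1.31, adjusted p = 2.1e-18) and UNG (−0.69, adjusted p = 2.2e-20), the flap nuclease FEN1 (−0.90, adjusted p = 2.6e-27), the ligase LIG1 (−0.78, adjusted p = 9.9e-24) and the sliding clamp PCNA (−0.75, adjusted p = 1.5e-27). FEN1, LIG1 and PCNA also serve DNA replication. TDP2 stood at −0.00 (adjusted p = 0.98), and the median of the list was −0.15.

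**Figure D3:**
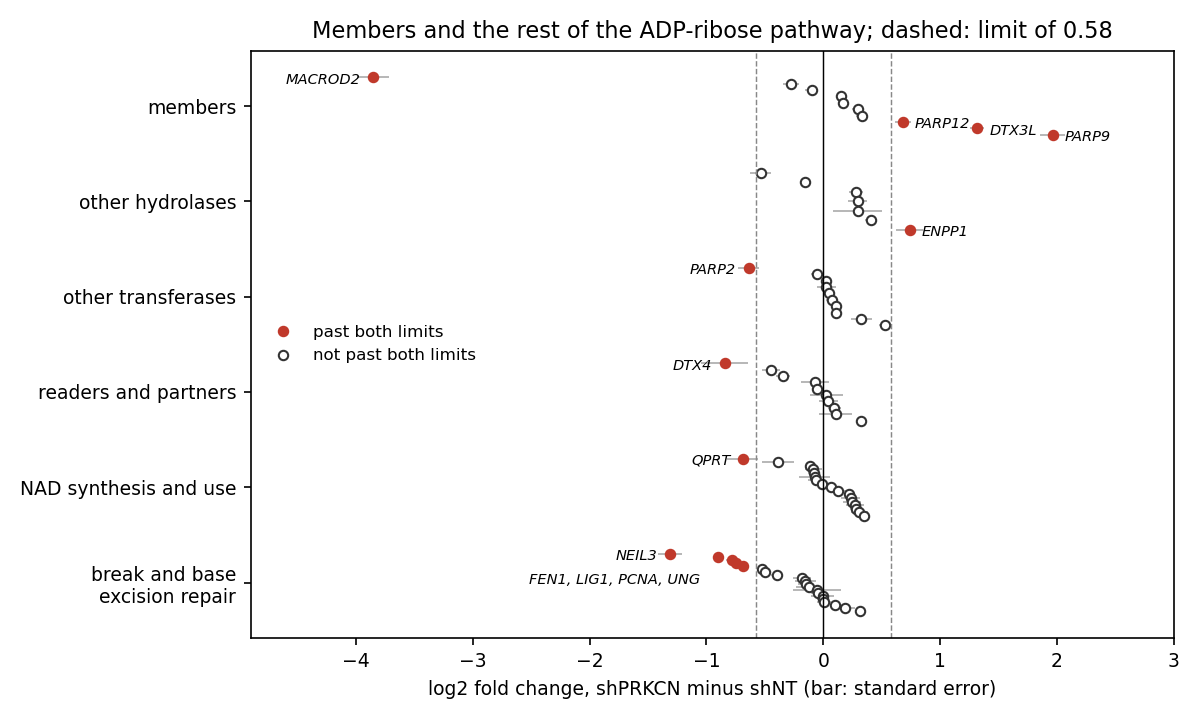
Log2 fold change (shPRKCN minus shNT) of the members and of 5 other lists of the ADP-ribose pathway, 1 point a gene with its standard error as a bar, filled where the gene passed both limits and with dashed lines at the fold limit of 0.58. MACROD2, which was chosen for its fall, lies at −3.85, PARP9 and DTX3L at 1.96 and 1.31 lie furthest to the right, and 5 repair genes lie left of the limit.

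Interferon-inducible genes other than the members were taken as a reference for PARP9, DTX3L, PARP10, PARP12 and PARP14. Of 33 tested, 9 passed both limits as higher and 1 as lower, against 6.15% and 10.6% of all tested genes, and the median of the list was 0.30. RSAD2, an antiviral enzyme, had 9 to 13 counts per shNT library and 70 to 72 per shPRKCN library (log2 fold change 2.60, adjusted p = 1.2e-09). LGALS3BP, a secreted glycoprotein, had 9 to 26 and 56 to 72 counts and rose by 2.05 on that scale (adjusted p = 1.4e-06). Both thus rest on few reads in shNT. MX2, an antiviral GTPase, fell by 0.68 (adjusted p = 1.2e-10), while its relative MX1 rose by 0.77 (adjusted p = 8.1e-25). PSMB9, an immunoproteasome subunit, had a log2 fold change of −0.02 (adjusted p = 0.81). MX1 is named after its values were seen. IRF4, a transcription factor of the IRF family on which myeloma cells depend, fell from 624 ± 12.5 to 173 ± 3.19 CPM, a log2 fold change of −1.85. The part of any of these factors in the members' levels was not tested.

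Genes of the aryl hydrocarbon receptor pathway were the reference for TIPARP. Of 6 tested, 1 passed both limits, as higher, where 16.7% of all tested genes passed in either direction. It was CYP1A1, a cytochrome that is a classical target of this receptor, with 1 to 2 counts per shNT library and 12 to 16 per shPRKCN library (log2 fold change 3.24, SE 0.761, adjusted p = 0.00021). CYP1B1, on the same list, had 2 to 5 counts per shNT library and 4 to 7 per shPRKCN library and was not tested. AHRR was not listed. AHR itself stood at 0.12 (adjusted p = 0.25). Of its partners, ARNT, at 22.8 FPKM in shNT, stood at −0.23 (adjusted p = 2.3e-06). ARNT2, at 0.461 FPKM in shNT, stood at −0.55 (adjusted p = 0.019). The median of the list was −0.06.

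The position of MACROD2 was then set beside that of its neighbours. MACROD2 covers 2.06 Mb, chr20:13995516-16053197 on the plus strand (RefSeq, GRCh38.p14). Of the 7 tested genes in or around it, none but LOC613266 passed both limits, where 16.7% of all tested genes did so. Nothing is read from that count. LOC613266, a non-coding RNA gene at chr20:15892333-15985882 inside the span of MACROD2, had 471, 529 and 484 counts in shNT and 86, 88 and 81 in shPRKCN, with a log2 fold change of −2.58 (SE 0.127, adjusted p = 4.8e-28). Its shPRKCN level was 16.7% of the shNT level. Upstream, TASP1 had a log2 fold change of 0.03 (adjusted p = 0.82), ESF1 −0.30 (adjusted p = 0.0011) and NDUFAF5 0.33 (adjusted p = 8.0e-04), and ISM1, at 6 to 24 counts, 0.90 (adjusted p = 0.14). Downstream, KIF16B had −0.31 (adjusted p = 0.0039) and SNRPB2 0.00 (adjusted p = 0.97). FLRT3, nested in MACROD2, had 1 to 4 counts and was not tested.

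GENCODE 29 lists 15 transcripts of MACROD2 with 15 different starts spread over 1.99 Mb, of which 5 are protein coding. Their starts lie at 13995369, 13995659, 15196858, 15862743 and 15985788 on chromosome 20, and the last of these is 94 bases inside the end of LOC613266. The counts are 1 value a gene, so neither the starts used nor the sharing of reads between MACROD2 and LOC613266 can be told apart.

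At the other locus, PARP9, DTX3L and PARP14 lie in a row on chromosome 3 with PARP15 between DTX3L and PARP14. Of the 8 tested neighbours, FAM162A, a mitochondrial protein of the hypoxia response, fell by 0.93 (adjusted p = 4.2e-27) and no other passed both limits. Over all tested genes 16.7% passed, and nothing is read from the count of neighbours. The nearest neighbours were KPNA1, an importin, 13.0 kb from PARP9 with a log2 fold change of 0.12 (adjusted p = 0.011), and HSPBAP1, 9.16 kb from PARP14 with 0.38 (adjusted p = 1.7e-04). WDR5B stood at 0.38 (adjusted p = 8.6e-04) and PDIA5 at −0.28 (adjusted p = 0.003). The lead of PARP9 and DTX3L over PARP14, 1.96 and 1.31 against 0.29, thus stood beside neighbours between −0.93 and 0.38.

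Profiles over the 6 libraries were compared by the root mean square distance between log2(CPM + 0.5) values, each centred on its own mean. A smaller value means a closer profile. The added 0.5 understates the change of genes at low CPM, such as MACROD2 in shPRKCN, so the order also depends on level. The gene most like MACROD2 was FOSB, an immediate early transcription factor of the AP-1 family, at a distance of 0.254, at 982 to 1025 counts per shNT library against 107 to 126 per shPRKCN library. It was followed by FOS at 0.388 and JUN at 0.504, members of the same family with log2 fold changes of −2.67 and −2.41, then by LOC613266 at 0.53 and by ANKRD37, an ankyrin repeat protein, at 0.539. With 3 libraries a group this distance mostly reflects the difference between the groups, and it is given with no test.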

How the data were processed

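RNA of 6 MM.1S samples (3 shNT, 3 shPRKCN) was sequenced, and the authors deposited 1 table of raw read counts and 1 of FPKM per gene. The submitters' processing notes name FastQC, HISAT2, StringTie and the GRCh38.p14 build. The counting program, annotation release and strandedness are not given in the sources used here. The deposited FPKM followed from the counts, the library totals and 1 length a gene within 0.01% for all 21850 genes, so both tables hold 1 measurement. Chi-square per degree of freedom between libraries was 2.93 to 4.02 within groups and 49.2 to 54.2 between them, and no library was a copy of another.

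Counts were fitted with edgeR 4.0.16 in R 4.3.3 (TMM, filterByExpr, quasi-likelihood F test, Benjamini-Hochberg over 13971 genes). A gene passed both limits at an adjusted p under 0.05 and an absolute log2 fold change over 0.58, the limits of the study's methods, which used DESeq2. The study counts more genes as higher and as lower at these limits than were found here, with DESeq2 as well. The reason was not tested. CPM used TMM-scaled library totals. The fit was checked on simulated data. Standard errors are the log2 fold change over the root of F. Alternatives were DESeq2 1.42.0, limma 3.58.1 on log2(FPKM + 1) or log2(FPKM + 0.1), other scalings and filters, a replicate block, and leaving out each library.

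The members and gene lists were chosen with earlier results of these data known. Named were all members, PRKD3, IRF4, up to 4 genes a list (those past both limits and the largest and smallest changes), up to 5 neighbours a side, and the 5 genes most like MACROD2. In the repair list all 5 past both limits are named as well, and in the AHR list ARNT. No promoter window was available for PARP10. PARP10, TIPARP, OARD1 and MACROD1 also overlap other annotated genes. GRINA, which overlaps PARP10 over 3360 bases, had 3071 to 4504 counts. NFYA, which overlaps OARD1 over 24814 bases, had 2199 to 2395. Whether reads were shared between GRINA and PARP10 or between NFYA and OARD1 is not known, since the use of strand in counting is not given.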

Additional observations from a re-analysis of the deposited data

How the results depend on the processing

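Under all 15 alternatives no member changed direction, which describes the contrast that chose them and adds no support. The log2 fold change of MACROD2 ran from −3.90 to −3.78 when each library was left out and was −1.79 on log2(FPKM + 1), a scale that understates the change of low genes. PARP9 ran from 1.02 to 2.02, DTX3L from 1.13 to 1.35 and PARP12 from 0.59 to 0.72. On log2(FPKM + 1), 315 genes passed as higher and 648 as lower, in place of 859 and 1475, with 5 of the interferon list and 0 of the other hydrolases, transferases, readers, NAD and AHR lists. With genes of at least 1 FPKM in 3 libraries only, these counts were 310, 635, 4 and again 0 in those 5 lists. On log2(FPKM + 0.1) the reader list had 0 called. With at least 10 counts in every library the AHR list had 0, because CYP1A1 was not tested. In that setting the interferon list had 7 in place of 10, because RSAD2, LGALS3BP and CMPK2 were not tested. Leaving out 1 library gave 0 to 1 genes of the transferase list (0 without the second shPRKCN library) and 1 to 2 of the AHR list (2 without the third shNT or the second shPRKCN library). DESeq2 passed 812 and 1450 genes. With the replicate number as a block, 854 and 1463 passed. Correlations of same-numbered libraries' deviations were −0.059, −0.020 and −0.016, and no library correlated best with its own number, so the numbers were not taken as pairs. With only the 250 bases before the start searched, 3 member windows in place of 4 held each IRF motif and 7 in place of 8 held GCGTG. Where the causes of these moves are not named they were not tested. Depth limits CYP1A1, RSAD2, LGALS3BP, CMPK2 and genes below about 10 counts.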
